A study of Mus musculus with 14 samples.

Results

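The splicing factor genes described here are the 54 protein-coding mouse genes whose symbols belong to the Srsf, Sf3a, Sf3b, Hnrnp and Snrp series or are U2af1, U2af2 or Zrsr2, with the imprinted gene Snrpn left out. They were chosen by name alone among 21440 protein-coding genes with a known start, and the naming rule uses no measured value, although the set was proposed with earlier results of these data known. H3K4me3, trimethylation of lysine 4 on histone H3, was profiled by CUT&Tag in LSK cells, the lineage-negative, Sca1-positive, cKit-positive bone marrow fraction that holds hematopoietic stem and progenitor cells. The cells came from male C57BL/6J mice fed a high-fat diet (HFD-LSK, 3 libraries) or a low-fat control diet (LFD-LSK, 4 libraries), and all animals shared that genotype. Whether each library is a separate mouse was not given in the sources used here, so the p-values below measure the spread between these libraries. A gene was counted as called in a library when the peak list of that library held a peak within 1000 bp of the gene start, and the strongest such peak stood for the gene.

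H3K4me3 collects on the nucleosomes around active and poised gene starts, most heavily at CpG-rich promoters of broadly expressed genes. The encoded proteins build the machinery that removes introns. The U1 and U2 small nuclear ribonucleoproteins mark the ends of an intron, U2AF and the SF3A and SF3B complexes settle U2 on the branch point and the 3′ splice site, and SR proteins and hnRNPs bind the transcript to favor or oppose the use of a site. Sf3b1, Srsf2, U2af1 and Zrsr2 are the members recurrently mutated in myelodysplastic syndromes and related blood cancers, which arise in the stem and progenitor cells sampled here.

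The upstream promoters of these 4 genes are shown as the sequence beside the peaks described next, together with those of Hnrnpm, the member whose rank differed most between the diets, and of Snrpe, the only member called in no list. Each sequence is the 250 bases before the start on the strand of the gene (the minus strand for all 6) from RefSeq on GRCm38.p6. Capitals mark exact matches, on either strand, to the GC box GGGCGG, the CCAAT box CCAAT or the TATA box TATAAA. The positions are chr1:55027479-55027728 for Sf3b1, chr11:116853095-116853344 for Srsf2, chr17:31658765-31659014 for U2af1, chrX:163958667-163958916 for Zrsr2, chr17:33685459-33685708 for Hnrnpm and chr1:133610281-133610530 for Snrpe.
Sf3b1: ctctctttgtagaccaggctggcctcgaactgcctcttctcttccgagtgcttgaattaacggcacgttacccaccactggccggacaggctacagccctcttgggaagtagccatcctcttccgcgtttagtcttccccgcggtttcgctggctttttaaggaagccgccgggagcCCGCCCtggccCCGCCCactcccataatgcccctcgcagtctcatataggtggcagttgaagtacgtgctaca
Srsf2: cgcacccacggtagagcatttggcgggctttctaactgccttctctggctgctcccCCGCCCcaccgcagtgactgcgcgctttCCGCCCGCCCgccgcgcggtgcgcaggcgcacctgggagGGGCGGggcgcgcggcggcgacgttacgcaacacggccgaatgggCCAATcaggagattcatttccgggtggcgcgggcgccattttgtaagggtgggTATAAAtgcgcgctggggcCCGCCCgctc
U2af1: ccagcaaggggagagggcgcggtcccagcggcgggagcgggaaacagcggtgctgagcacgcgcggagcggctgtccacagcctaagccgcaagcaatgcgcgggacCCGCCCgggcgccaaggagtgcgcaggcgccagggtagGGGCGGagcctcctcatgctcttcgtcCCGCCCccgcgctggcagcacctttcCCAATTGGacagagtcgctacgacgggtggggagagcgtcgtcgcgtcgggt
Zrsr2: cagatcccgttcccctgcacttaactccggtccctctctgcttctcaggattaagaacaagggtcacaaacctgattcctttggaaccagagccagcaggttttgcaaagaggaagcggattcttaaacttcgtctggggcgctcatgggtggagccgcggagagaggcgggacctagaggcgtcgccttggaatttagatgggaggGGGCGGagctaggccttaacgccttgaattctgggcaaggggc
Hnrnpm: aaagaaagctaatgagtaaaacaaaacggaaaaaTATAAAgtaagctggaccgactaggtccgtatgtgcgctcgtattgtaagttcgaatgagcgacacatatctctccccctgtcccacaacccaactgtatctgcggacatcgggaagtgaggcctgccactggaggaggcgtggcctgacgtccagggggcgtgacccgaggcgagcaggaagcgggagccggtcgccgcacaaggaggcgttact
Snrpe: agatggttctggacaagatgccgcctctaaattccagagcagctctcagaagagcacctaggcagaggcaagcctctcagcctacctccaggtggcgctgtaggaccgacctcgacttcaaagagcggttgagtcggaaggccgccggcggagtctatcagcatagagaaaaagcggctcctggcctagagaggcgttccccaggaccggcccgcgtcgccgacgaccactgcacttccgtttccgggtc

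The Srsf2 promoter held 5 GC boxes, a CCAAT box and a TATA box 29 bases before the start, and U2af1 held 3 GC boxes and an overlapping pair of CCAAT matches. Sf3b1 held 2 GC boxes and Zrsr2 held 1. Over the 47 members with a promoter sequence, 74.5% held the GC box, against 43.3% of 17492 protein-coding promoters and 69.4% of the 3895 whose gene was called in all 7 lists. The CCAAT box was found in 46.8% of members, 36.4% of all promoters and 35.2% of those called in all 7 lists, and the TATA box in 10.6%, 12.3% and 4.06%. In the 32 members with a promoter sequence and a call in all 7 lists, the GC, CCAAT and TATA box shares were 81.25%, 50% and 12.5%. Of the other motifs searched, the ETS site CCGGAAGT was in 10.6% of members, 3.86% of all promoters and 6.80% of those called in all 7 lists. Among members called in all 7 lists it was in 6.25%, close to that last share. The CRE site TGACGTCA, the NRF1 core GCATGCGC and the YY1 core AAGATGGC were in 4.26%, 2.13% and 2.13% of members and in 1.98%, 3.02% and 1.48% of all promoters. In promoters called in all 7 lists the shares were 2.77%, 6.14% and 2.36%, and in members so called 0%, 3.125% and 0%. Members had a median of 19 CpG pairs in the 250 bases, all protein-coding promoters 10, those called in all 7 lists 20 and those called in none 3. Members called in all 7 lists had a median of 21. Snrpe, with no match to any motif, still had 19 CpG pairs.

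Nearly every splicing factor gene carried a called H3K4me3 peak at its start in LSK cells of both diets. Of the 54 members, 37 were called in all 7 lists and 53 in at least 1 list, while 21.7% of protein-coding genes were called in all 7 and 53.9% in at least 1. All 49 members called in every HFD list were also called in at least 1 LFD list, so none was called in every HFD list and no LFD list, a pattern that 0.154% of protein-coding genes showed. In no member did the number of calls by diet pass Fisher's exact test (two-sided, lowest p = 0.429 over the members). In a sorted pool, fewer cells with the mark and less of it per cell cannot be told apart. The map of fold ranks shows the calls of every member in every list.

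**Figure D1:**
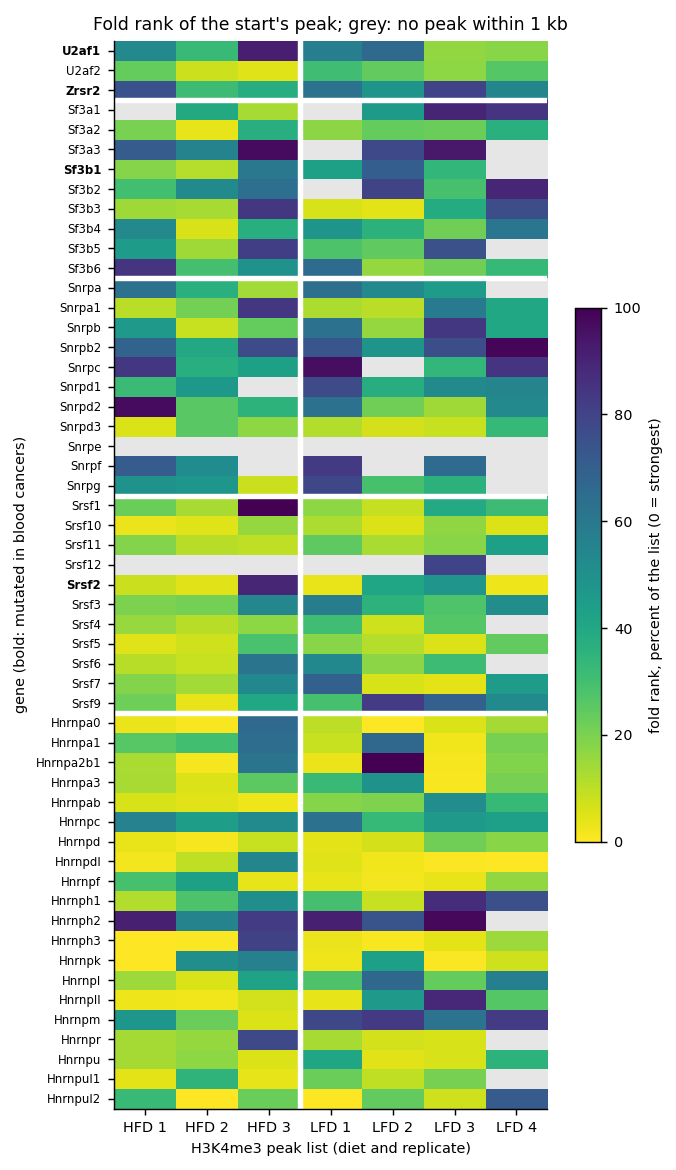
Fold rank of the strongest peak within 1000 bp of the start of each splicing factor gene (rows, grouped by family) in each H3K4me3 list (columns), as a percent of the list, where 0 is the strongest peak; grey marks no called peak. Of the 32 grey cells, 13 lie in the column of LFD replicate 4 and 7 in the row of Snrpe.

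Family by family, the median rank of members called in all 7 lists was 1999 for the hnRNP genes, 2927 for Srsf, 3364 for SF3A and SF3B, 3701 for Snrp and 4887 for U2AF and Zrsr2, and the median width was 1617, 1288, 1119, 1078 and 877 bp in the same order.

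The 7 lists differed in length and in the depth behind them. They held 6921 to 13094 peaks, and the median peak of a list held 15 to 48 fragments at its summit, numbers recovered from the deposited fold and p-values as described under processing. LFD replicate 4 had the shortest list and lacked 13 members, whereas the other 6 lists lacked 1 to 5. It called 75.9% of members and 30.6% of protein-coding genes. The other lists called 90.7% to 98.1% of members and 34.8% to 51.8% of protein-coding genes. In HFD replicate 3, 73.0% of peaks had a local background in the control above 2 times the genome-wide level, against 22.1% to 42.8% in the other lists. That library stood apart, results that rest on it are given with and without it, and the part of its background in them was not tested. The lists do not give the total reads of a library. An estimate of mean coverage was the genome-wide background put on the scale of the library's own fragments. It was 0.201, 0.268 and 0.116 fragments in HFD replicates 1 to 3 and 0.214, 0.172, 0.133 and 0.0891 in LFD replicates 1 to 4. Of 12 genes chosen as LSK markers, 6 were called in all 7 lists, among them Kit and Cd34. Ly6a, which encodes Sca1, and Lmo2 were called in none, and the reason was not tested. None of 8 genes typical of other tissues was called, and 9 of 10 markers of the lineages removed by the sort were called in no list.

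Within a list, peaks were ordered by fold enrichment over local background, so that rank 1 is the strongest. In most lists the 37 members present throughout stood above other genes. Their median rank lay at 18.6%, 10.8% and 40.2% of the list in HFD replicates 1 to 3 and at 18.1%, 21.7%, 21.8% and 33.0% in LFD replicates 1 to 4. The medians over the 4657 protein-coding genes called in all 7 lists were 29.7%, 22.2%, 38.6%, 33.7%, 28.0%, 29.0% and 35.3% in the same order, so members were nearer the top in 6 lists and farther in HFD replicate 3. Their peaks were also wider in every list, with medians of 652 bp in LFD replicate 4 to 2121 bp in HFD replicate 2, against 636 bp and 1668 bp for all these genes. At the summit they held a median of 22 fragments in HFD replicate 3 to 77 in HFD replicate 2, against 21 and 66.

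Fold enrichment sets the signal against a local background, so at equal signal a higher background lowers the rank by construction. The background is the number of control fragments, at the depth of the control, that the peak caller set against the peak. In LFD replicate 1 the rank followed the summit fragments almost in full (Spearman's rho -0.98 across 37 members, which share the library and its depth), while in HFD replicate 3 it followed them less closely (rho -0.35) and 35 of the 37 had a raised background. Over all 4657 genes called in all 7 lists rho was -0.94 and -0.26. In HFD replicate 3, 91.0% of these genes had a raised background, against 94.6% of the members. In LFD replicate 2 the 21 members with a raised background had a median rank of 3728 and the other 16 a median rank of 996, although both held a similar number of summit fragments, 52 and 50. Over all genes called in all 7 lists these medians were 4392 and 1825 in rank and 46 and 43 in fragments. Hnrnpa2b1, an hnRNP that also binds microRNAs, was an extreme case. Its summit in LFD replicate 2 held 72 fragments, more than the median member, over a local background of 7 control fragments, and it ranked 10572 of 10572 peaks. In HFD replicate 2 its 97 fragments over a background of 0.113 gave it rank 171.

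**Figure D2:**
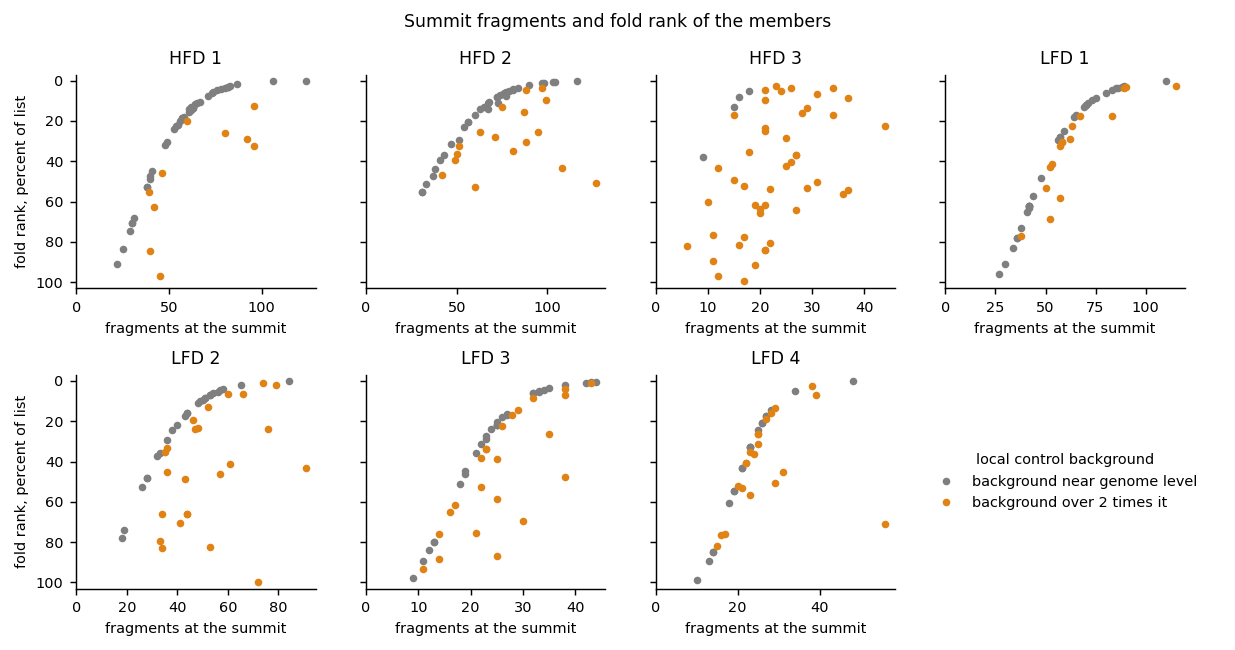
Fragments at the summit (x axis) and fold rank as a percent of the list (y axis, 0 at the top) for every called member, in a panel for each list; orange points have a local control background above 2 times the genome-wide level. Grey points lie along a curve in the panels other than HFD replicate 3, orange points often lie below it, and nearly all points of HFD replicate 3 are orange and scattered.

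U2AF and Zrsr2, which read the 3′ end of the intron, were called in all 7 lists. U2af1, the small U2AF subunit that contacts the terminal AG, had fold ranks of 4858.5, 4236.5 and 10977 in HFD replicates 1 to 3 and 4266, 6975.5, 1676 and 1218 in LFD replicates 1 to 4. The diets overlapped, and HFD replicate 3 held the rank farthest from the top, over a control background of 3 fragments. The mean rank was 6691 ± 3725 (SD, n = 3) in HFD and 3534 ± 2658 (SD, n = 4) in LFD, a difference of 3157 (p = 0.229 by a two-sided exact permutation test) that was 1014 without HFD replicate 3. Zrsr2, an X-linked relative of U2af1 that serves the minor class of introns, had ranks of 6860, 4124 and 4531 in HFD and 4648.5, 5106.5, 8254 and 3784.5 in LFD. Its ranks were intermixed, the mean difference was -277 (exact permutation test, p = 0.857), and among the members called in all 7 lists it was the only one whose peak began, on average, downstream of the start, by 19.6 bp. The Zrsr2 summit held 9 to 47 fragments, a mean of 26.7, against a median of 46.9 over members called in all 7 lists. The other member on the X chromosome, Hnrnph2, called in 6 lists, had a mean of 19.5. Some autosomal members were as low, with means of 20.4 for Sf3a3, 24 for Snrpc and 24.7 for Snrpb2. U2af2, the large subunit that binds the polypyrimidine tract, ranked 2188.5, 978.5 and 573 in HFD and 2277.5, 2547.5, 1747.5 and 1816.5 in LFD. U2af2 had no RefSeq promoter entry, so its start was the outermost annotated 5′ end of the gene, and distances were measured from there. Its peak reached 1787 bp into the gene on average, with summits at 802, 1015 and 1378 bp downstream of the start in HFD and at 800, 801, 469 and 160 bp in LFD. Every HFD summit lay beyond every LFD summit, although the mean offsets of 1065 bp and 558 bp did not pass the test (exact permutation p = 0.114). Summits lay farther downstream in every HFD list for 2 of the 37 members called in all 7 lists and for 2.25% of all genes so called.

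The SF3A and SF3B subunits of the U2 particle included 4 of 9 genes (Sf3a2, Sf3b3, Sf3b4 and Sf3b6) called in all 7 lists, and 88.9% of their gene and list pairs were called. Sf3b1, the subunit that holds the branch point and is the splicing gene most often mutated in myelodysplastic syndromes, was called in every list except LFD replicate 4, where the nearest peak lay 25.3 kb away. Its ranks were 1656, 1471 and 7188 in HFD and 3209.5, 7426.5 and 3517 in LFD replicates 1 to 3. The mean difference of -1279 was smaller than the spread (exact permutation p = 0.500, and 3 lists against 3 cannot go below 0.100), and it was -3154 without HFD replicate 3 and 75.1 without LFD replicate 2. The summit held 58, 67 and 10 fragments in HFD and 52, 41 and 23 in LFD. Ranked within the list by these fragments, Sf3b1 had a mean difference of 1219 in the other direction (exact permutation p = 1). The Sf3b1 peak was 755, 2407 and 1030 bp wide in HFD and 539, 779 and 580 bp in LFD (exact permutation p = 0.200).

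The other SF3 genes with missing calls had modest peaks. Sf3a1, which bridges U1 and U2, was not called in HFD replicate 1 or LFD replicate 1, and it ranked 5131 and 1579.5 in the other HFD lists and 4793.5, 9271.5 and 5860 in the other LFD lists. Sf3a3 was not called in LFD replicates 1 and 4 and ranked 6503.5, 7227.5 and 11634 in HFD and 8238 and 9639 in LFD, from 55.2% to 97.1% of the way down the list. Its peaks averaged 504 bp. Sf3b2 was not called in LFD replicate 1 and ranked 2780.5, 6891.5 and 7613 in HFD and 8409, 3004.5 and 6168.5 in LFD. Sf3b5 was not called in LFD replicate 4 and ranked 4134, 1870 and 9749.5 in HFD and 2075, 2582 and 7788.5 in LFD. For each of these genes the ranks of the diets overlapped.

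Of the 11 Snrp genes, which encode the Sm ring and the U1 and U2 proteins, 5 were called in all 7 lists, and 81.8% of the gene and list pairs were called, the lowest share of the families. Snrpe, an Sm ring subunit, was called in none, and the nearest listed peak lay 50.1 to 187 kb from its start. Whether the mark is absent there or peaks are missing from the lists was not tested. Snrpf, its neighbor in the Sm ring, was called in 4 lists, with ranks of 6503.5 and 6744.5 in HFD replicates 1 and 2 and 6192 and 6714 in LFD replicates 1 and 3. Snrpd1 was not called in HFD replicate 3 and ranked 2932 and 6115.5 in HFD and 5739.5, 3965, 5454.5 and 3784.5 in LFD. Where called, these Sm genes lay between 31.9% and 83.1% of the way down a list. Snrpg was not called in LFD replicate 4 and ranked 4465, 6201.5 and 978.5 in HFD and 5819.5, 3077.5 and 3701 in LFD. The U1 gene Snrpa, also without a call in LFD replicate 4, ranked 5774.5, 4780 and 1645 in HFD and 4710.5, 5581 and 4626.5 in LFD. The U1 gene Snrpc was not called in LFD replicate 2 and ranked 7696, 4850.5 and 5171.5 in HFD and 7156.5, 3517 and 5860 in LFD. None of these 3 genes separated the diets.

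Snrpb2, a U2 protein, had, on average, the narrowest and lowest ranked peak of the members called in all 7 lists. Its widths were 647, 1210 and 315 bp in HFD and 542, 788, 505 and 262 bp in LFD, and its ranks 6278, 5187 and 9199 in HFD and 5446, 5106.5, 7879.5 and 6834.5 in LFD. Snrpd3, another Sm subunit, stood at the other end of the family, with ranks of 505.5, 3360 and 2039.5 in HFD and 844, 697, 889 and 2286.5 in LFD. Its summit was the farthest upstream of any member called in all 7 lists, at -704, -708 and -704 bp in HFD and -704, -194, -614 and -706 bp in LFD. Gucd1 starts 70 bp upstream of Snrpd3 on the opposite strand, so the peak covered both starts.

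The Srsf genes encode SR proteins, which bind exonic enhancers, and 8 of 11 were called in all 7 lists. Srsf2, mutated in myelodysplastic syndromes and chronic myelomonocytic leukemia, had ranks of 718, 583.5 and 10704 in HFD and 252, 4353.5, 4940 and 171.5 in LFD. The ranks were as far apart within a diet as between diets, with means of 4002 ± 5805 (SD, n = 3) and 2429 ± 2572 (SD, n = 4; exact permutation p = 0.743). The difference of 1573 turned to -1779 without HFD replicate 3, where the summit held 11 fragments against 71 and 81 in the other HFD lists. Ranked by summit fragments, Srsf2 lay farther from the top in every HFD list than in any LFD list (exact permutation p = 0.0286, the smallest possible, with no adjusted p over all genes below 0.989), and it was the only member to do so, as 3.74% of all genes called in all 7 lists did. The fragment counts themselves, 71, 81 and 11 in HFD and 90, 61, 38 and 38 in LFD, overlapped. The Srsf2 peak was among the wider ones, at 1118, 2947 and 903 bp in HFD and 1662, 2780, 2691 and 1002 bp in LFD. Its summit lay between the Srsf2 start and that of Mfsd11, which begins 668 bp upstream on the opposite strand, in 6 lists and 409 bp downstream of the Srsf2 start in HFD replicate 3.

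Srsf10 had the mean rank nearest to the top of its family, with or without HFD replicate 3. It ranked 270.5, 629 and 1913.5 in HFD and 902, 561, 1731.5 and 356 in LFD, and the diets overlapped (exact permutation p = 0.914). Srsf1, a founding SR protein, ranked 2070.5, 1689 and 11933.5 in HFD and 1267, 916.5, 4028 and 2171 in LFD. Its place in HFD replicate 3, over a background of 4 control fragments, was the farthest of all its lists. Srsf4 and Srsf6 were called in every list except LFD replicate 4. Srsf4 ranked 1424, 1430 and 2020 in HFD and 2277.5, 746.5 and 2749.5 in LFD, and Srsf6 ranked 1000, 1093 and 7387.5 in HFD and 3966, 1825 and 3244.5 in LFD. Srsf12 had a call only in LFD replicate 3, at rank 8254, with a peak of 275 bp and 13 summit fragments.

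Over members called in all 7 lists, the hnRNP genes (17 of 20) had the strongest peaks of the families by median rank. Their median width of 1617 bp and median of 55.1 summit fragments were also the largest. List by list the order varied. Among called members, Srsf genes had the nearer median in HFD replicate 2 (9.56% of the list against 12.7%) and LFD replicate 2 (11.9% against 21.6%). In HFD replicate 3 Snrp (29.4%) and U2AF and Zrsr2 (37.8%) stood nearer than hnRNP (46.4%). Hnrnpk, a binder of poly(C) tracts, had the most summit fragments on average, with 124, 127 and 36 in HFD and 115, 91, 44 and 39 in LFD. Hnrnpd, which binds AU-rich elements, had the mean rank nearest to the top of the members called in all 7 lists, with ranks of 319, 157 and 1013 in HFD and 291.5, 692, 2258 and 1218 in LFD. That order rested on HFD replicate 3, since without it Hnrnpd had a mean rank of 823, behind Hnrnph3 at 313, Hnrnpdl at 350, Hnrnpa0 at 442 and Srsf10 at 742. The widest peaks were those of Hnrnpl and Hnrnpdl. Hnrnpl peaks measured 2723, 3971 and 1351 bp in HFD and 2754, 3486, 3076 and 415 bp in LFD. Hnrnpdl peaks measured 2716, 2688 and 2289 bp in HFD and 2457, 2572, 2263 and 2063 bp in LFD and ranked 170, 1269 and 6495.5 in HFD and 352.5, 219, 80.5 and 9.5 in LFD. Enoph1 starts 772 bp upstream of Hnrnpdl on the opposite strand, and the Hnrnpdl summit lay 795 bp upstream in all 3 HFD lists, and at 342, -636, -795 and -646 bp in LFD. Hnrnpu had the summit farthest downstream, at 1225, 1213 and 990 bp in HFD and 862, 1202, 1210 and 1192 bp in LFD.

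The 3 hnRNP genes with missing calls lacked them in LFD replicate 4 alone. Hnrnpr ranked 1240.5, 2061 and 9311.5 in HFD and 973, 717.5 and 646 in LFD, so every HFD rank was farther from the top (exact permutation p = 0.100, the smallest that 3 lists against 3 allow). Among all genes called in the lists other than LFD replicate 4, 5.985% ranked farther in every HFD list. Without HFD replicate 3 the remaining HFD ranks of Hnrnpr, 1240.5 and 2061, still lay farther than its LFD ranks. Hnrnpul1 ranked 376, 4564 and 452 in HFD and 1680, 1018 and 2128 in LFD. Hnrnph2 ranked 8374.5, 7227.5 and 9850.5 in HFD and 6793, 7843.5 and 10110.5 in LFD, in the lower part of each of these lists, from 55.2% to 97.7% of the way down.

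The fold ranks of these genes showed no common direction between the diets. The mean rank was nearer the top in HFD for 16 of the 37 members and farther for 21, with a median difference of 96.8 ranks, against 710 over all 4657 protein-coding genes called in all 7 lists. Without HFD replicate 3 the medians were -529 and -18.8. The lists were of unequal length, and the sign of the medians turned when this was taken into account. With ranks as a percent of the list the medians were -4.68 points for members and -1.70 points for all genes. Ranked among the genes called in all 7 lists, they were -178 and -37.6 ranks. In 2 members every HFD rank was nearer the top than every LFD rank, Hnrnpm and Hnrnpab, where 1.31% of all genes tested showed this, and in 1, Hnrnpc, every HFD rank was farther, where 4.4% did. With ranks taken as a percent of the list the split over all genes changed from 61 nearer and 205 farther to 154 nearer and 78 farther, and Hnrnpc no longer separated. After Benjamini-Hochberg adjustment over all genes tested, no member passed the exact permutation test (lowest adjusted p = 0.739). At an unadjusted p below 0.05 the test counted 1 member and 180 genes, and limma on normal scores of the ranks counted 5 members and 220 genes, with no member past an adjusted p of 0.05.

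Hnrnpm, which binds introns and takes part in exon skipping, ranked 4351, 2991.5 and 639.5 in HFD and 5819.5, 8758.5, 6390.5 and 5682 in LFD. All HFD ranks were nearer the top, with means of 2661 ± 1878 (SD, n = 3) and 6663 ± 1431 (SD, n = 4) and a difference of -4002 (exact permutation p = 0.0286, adjusted p = 0.739). The diets also did not overlap when ranks were set by −log10 p, by summit fragments, as a percent of the list or among the genes called in all 7 lists, or when any 1 library was left out. With every list shortened to its 6921 strongest peaks, Hnrnpm was not in all lists, since it ranked 8758.5 in LFD replicate 2. The counts at its summit, 40, 54 and 18 in HFD and 36, 34, 17 and 15 in LFD, overlapped. Hnrnpab, a nucleic acid binding hnRNP, ranked 549.5, 570 and 312 in HFD and 1348.5, 2035.5, 5290 and 2286.5 in LFD, without overlap (exact permutation p = 0.0571). Hnrnpc, which packages nascent transcripts, ranked 5099, 5735 and 6267 in HFD and 4648.5, 3500.5, 4791 and 3003 in LFD, again without overlap (exact permutation p = 0.0571). Hnrnpll, the hnRNP L paralog known for CD45 splicing in lymphocytes, had the next largest mean difference, -3588 (exact permutation p = 0.229), from ranks of 244.5, 299.5 and 799 in HFD and 266, 4898.5, 9162.5 and 1816.5 in LFD. LFD replicate 1 overlapped the HFD ranks.

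**Figure D3:**
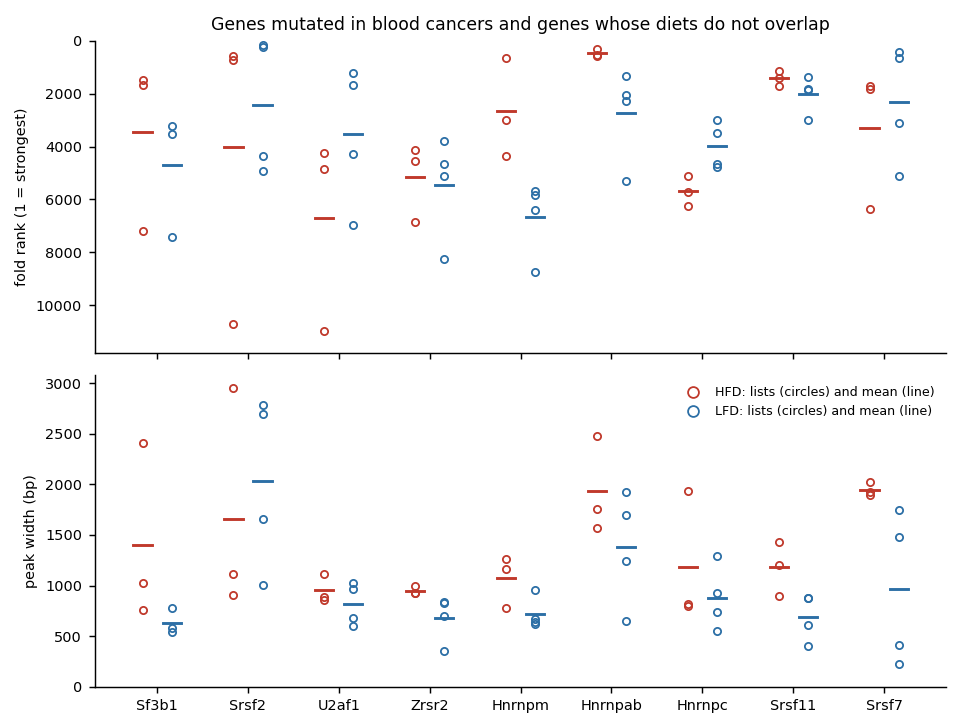
Fold rank (top, rank 1 at the upper edge) and peak width in bp (bottom) of the 4 genes mutated in blood cancers and of the members whose diets did not overlap in rank or width; circles are lists and lines are means of 3 HFD and 4 LFD lists (3 for Sf3b1 in LFD). Circles of the diets are mixed for Srsf2 and U2af1, while all HFD ranks of Hnrnpm lie above its LFD ranks.

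Peaks of splicing factor genes were on average wider in HFD lists, as were those of other genes. The mean width was greater in HFD for 34 of 37 members, with a median difference of 349 bp, and for 4321 of 4657 protein-coding genes, with a median difference of 278 bp. Summit fragments were on average also more numerous in HFD for 36 of the 37 members and 4468 of the 4657 genes, and their part in the width was not tested. HFD replicate 2 held the widest peak of 29 members and LFD replicate 4 the narrowest of 25. These lists had the highest and the lowest estimated mean coverage, 0.268 and 0.0891 fragments. The part of coverage in the widths and fragments was not tested. In 3 members, Srsf11, Srsf7 and Zrsr2, every HFD peak was wider than every LFD peak, where 6.83% of all genes tested showed this, and in no member was every HFD peak narrower, as in 0% of genes. Srsf11 measured 901, 1432 and 1205 bp in HFD and 611, 881, 872 and 403 bp in LFD (exact permutation p = 0.0286, adjusted p = 0.711). Srsf7, an SR protein that also acts in mRNA export, measured 1894, 1926 and 2025 bp in HFD and 408, 1747, 1484 and 227 bp in LFD (exact permutation p = 0.0857). Zrsr2 measured 929, 995 and 925 bp in HFD and 837, 698, 828 and 354 bp in LFD (exact permutation p = 0.0857). Ranked by width within the list, none of the 3 kept the diets apart.

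Most peaks lay across the gene start. Of the 346 called peaks of members, 301 covered the start itself (87.0%, against 81.0% over all protein-coding genes), and the summit lay within 250 bp of it in 61.3%, against 62.7%. The median over members of the mean summit offset was 0.857 bp, against 106 bp downstream over all genes called in all 7 lists, and the spread between lists was 36.3 bp (SD). Per list the member medians were 58, 52 and 52 bp in HFD and 48, -4, 0 and -33 bp in LFD, and those of all genes were 96, 98, 77, 84, 90, 72 and 47 bp. The summit of Sf3b1 averaged 119 bp, U2af1 124 bp, Zrsr2 409 bp and Srsf2 -242 bp, and none of the 4 offsets passed the test between the diets (exact permutation p = 0.200, 0.771, 0.829 and 0.571).

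The upstream reach of a peak differed among members by whether another gene started nearby on the opposite strand. Of the 37 members called in all 7 lists, 18 had such a start within 1000 bp. The median edges of their peaks lay at -724 bp and 806 bp from the start, and the median width was 1555 bp. For the other 19 the edges lay at -277 bp and 791 bp and the width was 1323 bp. The summit lay upstream of the start in 11 of the 18 and in 7 of the 19.

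**Figure D4:**
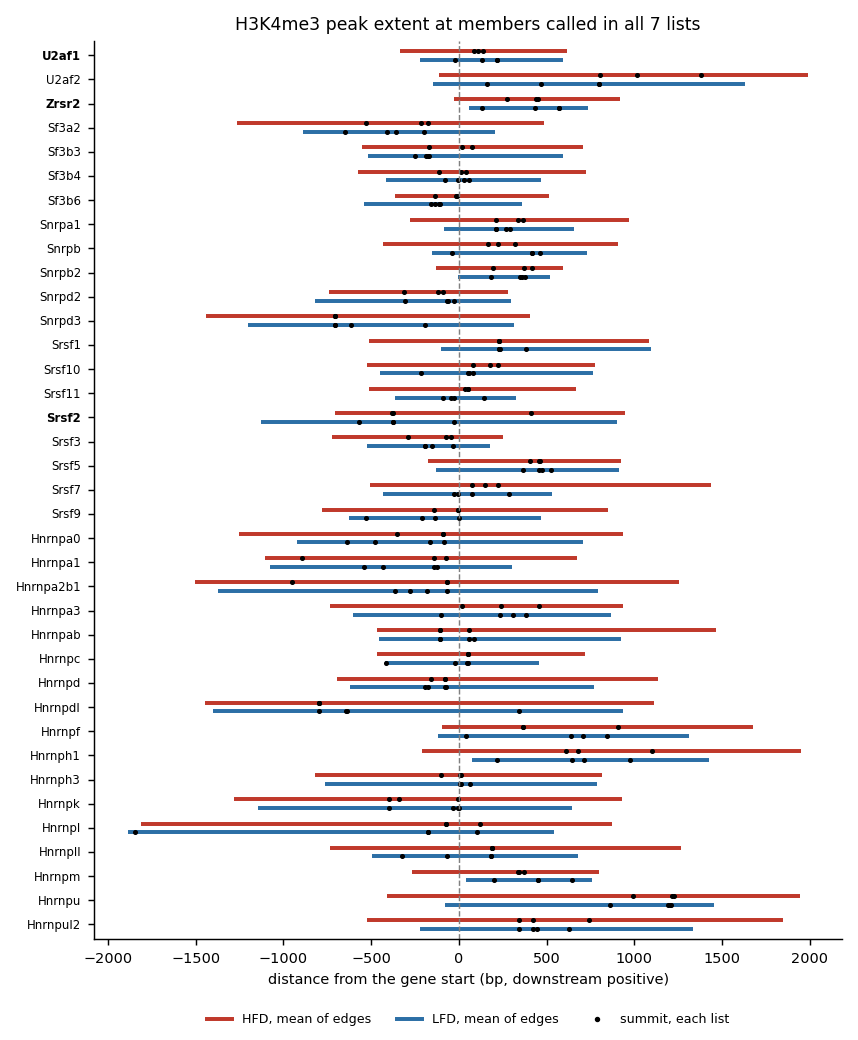
Extent of the H3K4me3 peak around the start (0, dashed) of each member called in all 7 lists, with downstream positions positive, as the mean of the edges in HFD (red) and LFD (blue) and the summit in each list (black points). Peaks of Snrpd3 and Hnrnpdl lean upstream, and those of U2af2 (its start is the gene's outermost 5′ end) and Hnrnpu reach far into the gene.

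Other genes of the splicing pathway were called less regularly than the members. Of 80 genes such as the Prpf, Snrnp, Dhx and Ddx factors, 31 (38.8%) were called in all 7 lists, 27 in 6, 17 in 1 to 5 and 5 in none, against 37 of 54 members (68.5%). Their median mean rank was 3437 and their median width 1119 bp, against 3359 and 1120 bp for all genes called in all 7 lists and 2991 and 1387 bp for the members. None of the 31 ranked nearer the top in every HFD list and 1 ranked farther. Of 5 further genes mutated in blood cancers, Sf1 was called in all 7 lists, Ddx41 in 6, Prpf40b in 5, Prpf8 in 4 and Luc7l2 in none at its listed start. Luc7l2 had a peak in 6 lists at the outermost end of its annotation, 4389 bp upstream. The Sf1 rank difference of -1124 did not pass the test (exact permutation p = 0.486).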

How the data were processed

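H3K4me3 CUT&Tag peak lists of 3 HFD-LSK and 4 LFD-LSK libraries were analysed, 1 list per library; the IgG control libraries were not analysed here. Per the labels, the submitters' processing notes name Trim Galore, Bowtie2, GRCm38, Picard, MACS2, bedtools, HOMER and featureCounts, with no versions, whereas the study's methods name SEACR as the peak caller and GRCm39 as the build. Coordinates were read as GRCm38 because peaks lie on gene starts of that build. The sample titles name CUT&RUN as the assay, whereas the study's methods describe CUT&Tag, the name used here. In the lists the authors deposited, each peak carries its fold enrichment as a ratio to the local background, with p and q on the −log10 scale, and the lowest −log10 p over the lists was 5.01.

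Gene starts came from the RefSeq GRCm38.p6 promoter table for 47 members and from the gene's 5′ end for 7. The latter were U2af2, Sf3b4, Sf3b5, Snrpb, Snrpd1, Hnrnpll and Hnrnpul2. Where a gene had several starts, the one called in most lists was used. Fragments at the summit and the local control background were solved from fold and p-value, as MACS2 computes them, for every peak within a relative tolerance of 5e-05; signal had been scaled to the depth of the control by 0.0958 to 0.913. Up to 2.59% of the peaks of a list had more than 1 solution, and fragments may include PCR duplicates. Diets were compared by two-sided exact permutation tests over lists (35 splits, smallest p = 0.0286; 3 against 3, 0.100), adjusted by Benjamini-Hochberg over the 4657 protein-coding genes called in all 7 lists. The fragment recovery and the rank test were tested on simulated data.

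Alternatives were other rank measures, windows of 500 bp and 3 kb, a −log10 q of at least 5, lists of equal length, limma on normal scores of ranks or on log2 widths, the replicate number as a block, and leaving out each library. A start at the outermost 5′ end of the gene was added after the data were seen. Genes named were the 4 mutated in blood cancers, members not called everywhere, members whose diets did not overlap or differed most, and the extremes of rank, width and summit position. Hnrnpk, Hnrnpa2b1, Hnrnph3 and Hnrnpa0 were named after their values were seen. The members and gene lists were chosen with earlier results of these data known. Python 3.11.15, numpy 2.4.6, pandas 2.3.3, scipy 1.17.1, matplotlib 3.10.9, R 4.3.3 and limma 3.58.1 were used.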

Additional observations from a re-analysis of the deposited data

Results flagged for a closer look

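Of 62 sets of 4 LFD values examined, 10 held a value whose gap to the nearest other exceeded Dixon's 95% limit for 4 samples (0.829 of the range). Independent normal values pass that limit in about 5% of sets. These sets share the same 4 libraries and include summit offsets, which need not be normal, so the count cannot be set against that rate. The median fold rank of the members was 1348.5 in LFD replicate 1 and 2258 to 2296 in the other LFD lists. LFD replicate 1 also held the summit of Hnrnpdl at 342 bp from the start (the others at -636 to -795 bp), that of Hnrnpl at -1849 bp (the nearest other at -174 bp) and that of Hnrnpu at 862 bp (the others at 1192 to 1210 bp).

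In LFD replicate 3 the summit of Srsf1 lay at 383 bp (the others at 226 to 232 bp) and that of Srsf10 at -216 bp (the others at 54 to 81 bp), and the Hnrnpm peak was 954 bp wide (the others 618 to 673 bp). In LFD replicate 4 the summit of Hnrnpc lay at -416 bp (the others at -23 to 52 bp), that of Snrpb2 at 184 bp (the others at 348 to 378 bp), and Snrpd3 ranked 2286.5 (the others 697 to 889). The HFD libraries, 3 in number, were not examined in this way.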

How the results depend on the processing

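The number of members called in every list was 37. It was 23 with a −log10 q of at least 5, 18 with every list shortened to 6921 peaks, 32 with starts at the outermost 5′ end of the gene (chosen after seeing the data), and 37 to 46 when 1 library was left out, the highest without LFD replicate 4. Members nearer the top in every HFD list numbered 2, and 5 by −log10 p, 1 in lists of equal length, 0 by limma and 2 to 6 when 1 library was left out, the highest without HFD replicate 3. Among all genes called in the lists used, 1.31% did so with all lists, 1.59% by −log10 p and 6.12% without HFD replicate 3. Members farther from the top numbered 1, and 0 with ranks as a percent of the list or among genes called in all 7 lists, 0 by limma and 1 to 3 when 1 library was left out (3 without HFD replicate 1, HFD replicate 2 or LFD replicate 4, and 2 without HFD replicate 3, LFD replicate 1 or LFD replicate 2). Over all genes the share was 4.40%, and 13.7% without HFD replicate 1, 9.96% without HFD replicate 2 and 5.985% without LFD replicate 4. It was 7.71%, 6.42% and 7.25% without HFD replicate 3, LFD replicate 1 and LFD replicate 2. Members with a wider peak numbered 3, and 0 with width ranked within the list, 0 by limma and 3 to 7 when 1 library was left out (7 without HFD replicate 3, 6 without HFD replicate 1, 5 without LFD replicate 2 or LFD replicate 3). Over all genes the share was 6.83%, and 16.6% without HFD replicate 3 and 19.5% without HFD replicate 1. It was 21.3% without LFD replicate 2 and 12.1% without LFD replicate 3. Members with a narrower peak numbered 0, and 1 (Sf3b6, named after its value was seen) with width ranked, where 3.82% of all genes did. The median summit offset was -0.333 to 51.6 bp when 1 library was left out, the highest without LFD replicate 4. The cause was not tested.

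Of the genes mutated in blood cancers, U2af1 kept its direction in all alternatives. By summit fragments the rank difference was 1219 for Sf3b1, 3141 for Srsf2 and 1512 for Zrsr2, and by −log10 p it was 488 for Zrsr2. With 1 library left out it ran from -3154 to 75.1 (without LFD replicate 2) for Sf3b1, from -1779 (without HFD replicate 3) to 3282 for Srsf2 and from -1121 to 659 for Zrsr2, positive also without HFD replicate 2 (247) or HFD replicate 3 (43.6). The median rank difference over members ran from -529 to 985 across libraries left out. Only peaks at a −log10 p of at least 5.01 were listed, so a missing call sets no level.

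Whether the replicate numbers pair the libraries could not be settled from so few libraries. The study's methods name batch and pairing among the covariates of its peak comparison, and the labels list no pairs. The exact permutation tests between the diets used no pairs. Deviations of same-numbered libraries correlated at 0.0741, 0.0167 and -0.00883, and not every library correlated best with its own number. With the replicate block, limma called 0 members in rank or width, and the paired rank differences were -1279 for Sf3b1, 820 for Srsf2, 2385 for U2af1 and -831 for Zrsr2 (exact paired permutation p = 0.750 for each, smallest possible 0.250).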

Other observations

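A member's place in the list varied widely from library to library. Over the 37 members called in all 7 lists, the median range of the fold rank was 60.5 percentage points of the list, and 23 spanned more than 50 points. HFD replicate 3 held the rank farthest from the top, as a percent of the list, for 11 of them and the fewest summit fragments for 20.

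Starts at the outermost 5′ end of the annotation differed from the start used for 27 of the 54 members, and by more than 1 kb for 6. At those ends 2 members, Hnrnph1 and Snrpe, were called in no list.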
